A study of Mus musculus with 11 samples.

Results

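The response of the mouse heart to pressure load was compared between 2 genotypes, as the change from sham surgery to transverse aortic constriction (TAC) in KO minus the same change in WT. TAC ties a suture around the aortic arch, so that the left ventricle has to pump against a higher pressure. All 11 of 11 libraries of the series enter this comparison, and they were chosen by their genotype and treatment labels. KO stands for mice with Tnnt2-Cre and Lmnb2Flox/Flox, in which the Cre recombinase is driven by the promoter of cardiac troponin T and so acts in cardiomyocytes. WT stands for the control mice, which the labels' protocol gives as Tnnt2-Cre mice, so that by the protocol every group carried the Cre transgene. WT sham 2, 1 of only 2 libraries of its group, is labelled WT where the others are labelled Lmnb2 WT, and it was read as the same genotype. RNA came from ventricular myocardium, with 2 WT and 3 KO libraries after sham and 3 of each genotype after TAC. Mice had surgery at an age of 10 to 12 weeks under 4% isoflurane, with bupivacaine (8 µg per g body weight) at surgery and on the next 3 days. The labels do not name the floxed exons, the time from surgery to sampling or the drugs given at sham surgery. The labels do not say that libraries are separate mice, so p-values measure the spread between these libraries only.

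Lamin B2 is a protein of the nuclear lamina, the meshwork under the inner nuclear membrane that carries chromatin and anchors nuclear pores. Signals of mechanical load reach cardiomyocyte genes through proteins that pass these pores, among them NFAT, the target of the phosphatase calcineurin, and the MAP kinases. Load is known to turn on a fetal gene program with natriuretic peptides and skeletal actin, to lower genes of fatty acid oxidation and potassium currents, and to activate fibroblasts that deposit matrix.

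Total counts ran from 14770383 to 17333227 per library. All 28 cardiomyocyte markers had counts in every library, with a summed level of 57641 to 114036 CPM (counts scaled by TMM to a common library size). In bulk tissue, fewer cells of a type and less RNA per cell cannot be told apart. The share of counts from the mitochondrial genome went from 41.1% ± 11.7 (SD, n = 2) to 21.5% ± 8.72 (n = 3) between sham and TAC in WT, and from 41.2% ± 4.44 to 28.0% ± 7.03 (n = 3 each) in KO. The change was higher in KO by 6.46 percentage points (-1.85 without WT sham 2), with p = 0.49 in an exact permutation test (2-sided) of the genotype labels within surgery, over 200 arrangements with 0.005 as the smallest possible p. Genes of ribosomal proteins took 1.33% of counts in WT TAC 3 and 0.874% in KO TAC 1, against 3.19% to 6.78% in the other TAC libraries, so both genotypes hold a TAC library that stands apart in its make-up.

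Lmnb2 itself (ENSMUSG00000062075; GRCm38 chromosome 10, 80901203 to 80918245, minus strand) was the first check of the labels. In WT it measured 4.44 and 3.86 CPM after sham and 2.86, 2.16 and 6.70 CPM after TAC. In KO it measured 0.649, 1.81 and 2.43 CPM after sham and 9.72, 3.24 and 4.46 CPM after TAC. After sham the KO libraries thus all lay below the WT libraries, while after TAC the genotypes overlapped and the highest value carried the KO label. The fitted change after TAC was -0.08 ± 0.62 (log2, standard error) in WT and 1.81 ± 0.58 in KO. Their difference was 1.90 ± 0.84 (95% interval 0.06 to 3.73; unadjusted p = 0.0439, edgeR adjusted p = 0.992), and exact permutation gave p = 0.07. Without KO TAC 1 the difference was 1.26. Because the deleted gene was not lower in the KO libraries after TAC, KO below always means the libraries labelled KO. The count covers all exons and all cell types of the tissue.

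No gene passed the test for a difference of response between the genotypes. Of 14619 genes tested, edgeR called 0 at an adjusted p under 0.05 (0%), and the smallest adjusted p was 0.423. At an unadjusted p under 0.05 there were 434 genes (2.97%), of which 220 (1.5%) had a higher and 214 (1.46%) a lower response in KO. limma-voom called 0 genes and DESeq2 called 2, Il1b and 2610507I01Rik, the latter a predicted gene named after its values were seen, with 7.06 and 6.53 CPM in WT sham, 0.0927, 0.543 and 0.347 CPM in KO sham, 1.79 to 1.93 CPM in WT TAC and 2.24 to 7.66 CPM in KO TAC. The pairwise changes, each TAC library set against each sham library of its genotype, lay wholly apart between genotypes in 213 genes with the higher response in KO (1.46%) and in 163 with the lower (1.11%).

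Each genotype on its own had a broad response. In WT 1011 genes were called (6.92%), of which 567 rose (3.88%) and 444 fell (3.04%). In KO 687 were called (4.7%), of which 486 rose (3.32%) and 201 fell (1.37%). The responses share no library, and 446 genes (3.05%) were called in both, all in the same direction, 302 higher and 144 lower. These were 44.1% of the WT calls and 64.9% of the KO calls. Of the genes called in WT, 99.2% had a change of the same sign in KO, and of those called in KO, 99.6% had the same sign in WT. Across the 12590 genes that averaged 1 CPM or more, which are not independent of each other, the changes correlated with r = 0.765 and rho = 0.703, and over all tested genes with r = 0.671 and rho = 0.656. Among the 446 genes the median size of change was 2.37 in WT and 1.93 in KO (log2), and the KO change was the smaller in 329. These genes were picked by passing in both, and over all tested genes the median standard error was 0.44 in WT and 0.39 in KO. At such errors a change in WT has to be larger to pass, so these sizes cannot by themselves show a weaker response in KO. Of all WT calls 88.4% had a smaller or opposite change in KO. Of all KO calls 50.2% had a smaller or opposite change in WT, and each set was picked by its own change. The part of selection and precision in these shares was not tested. The difference had an unadjusted p under 0.05 in 17 of the 446, against 2.97% of all tested genes. Scaled by library totals in place of TMM, which moved the median change of all genes to 0.37 in WT, 0.49 in KO and 0.14 for the difference, the calls were 1044 rises and 133 falls in WT and 1325 and 60 in KO.

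**Figure D1:**
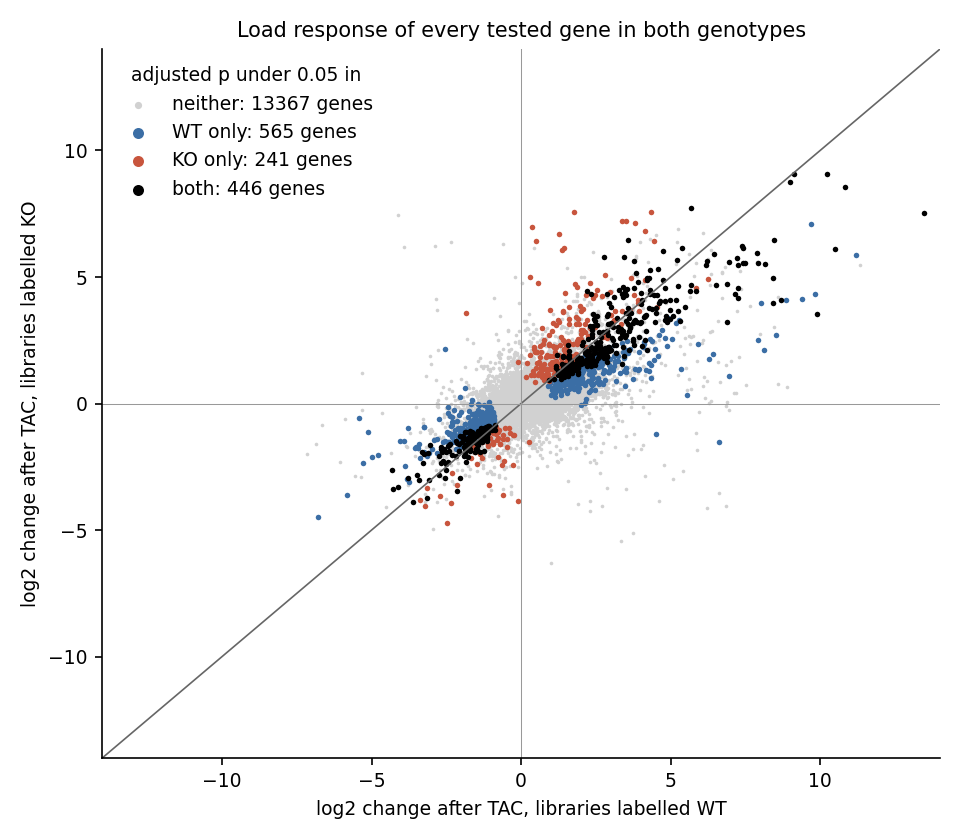
Each point is a tested gene, with the log2 change after TAC in libraries labelled WT on the x axis and in libraries labelled KO on the y axis. Black points are the 446 genes called in both genotypes, blue and red points those called in WT or KO only, and the diagonal marks equal responses; no black point lies in a quadrant of opposite signs.

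Response sizes were then described by gene class, with classes chosen in the light of earlier results of these data. Among classes with at least 20 tested members the highest medians were those of matrix, cell cycle and fetal program genes, in both genotypes. Ion channel and fatty acid oxidation genes had the lowest. Median changes over all tested genes were 0.05 in WT and 0.03 in KO, and the median difference was 0.01. Members with 0 to 3 counts in a group, whose fitted change depends on the prior count, were 4 in the matrix class and 3 in the cell cycle class; with them at their counting bound the median differences of these classes were -0.57 and 0.68, against -0.58 and 0.68 as fitted.

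**Figure D2:**
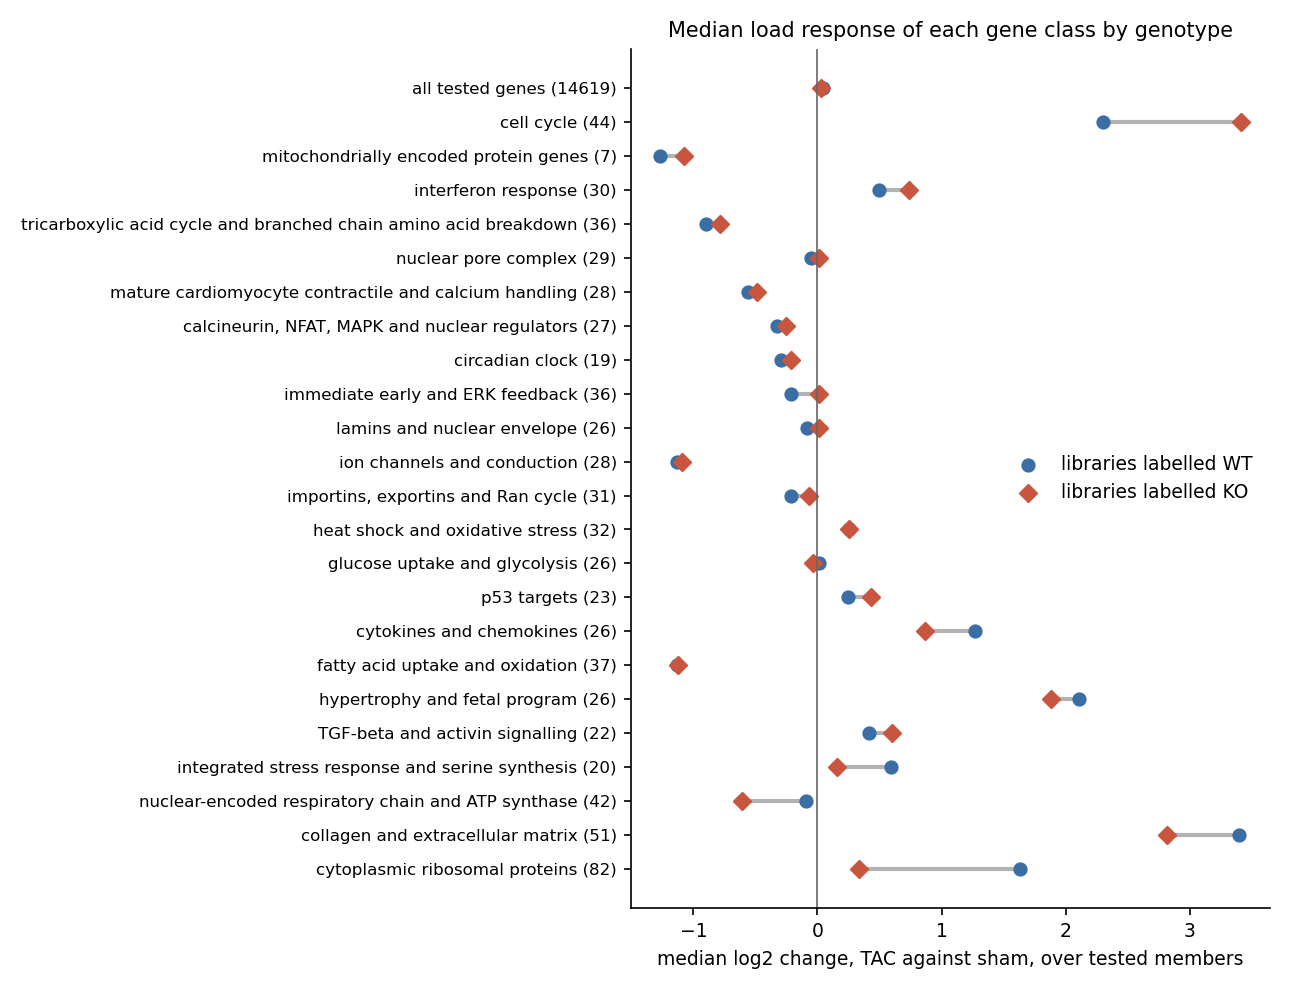
Median log2 change after TAC over the tested members of each gene class (number in parentheses), blue circles for WT and red diamonds for KO, ordered by the median difference of response. The points of the nuclear pore, lamin and transport classes lie near 0 in both genotypes, and among the classes drawn, which leave out the cell type marker lists, the widest gaps are those of ribosomal protein, cell cycle and matrix genes.

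Genes of the fetal and hypertrophy program had medians above 0 in both genotypes, and the difference had an unadjusted p under 0.05 for skeletal actin (higher in KO) and for Ccn2 and Uchl1 (lower in KO). Of 28 genes 26 were tested, and 13 rose in WT and 11 in KO, 10 of them in both, with 0 falls. Over all tested genes 3.88% rose in WT and 3.32% in KO, and 2.97% had an unadjusted p under 0.05 for the difference. The median change was 2.11 in WT and 1.88 in KO, and the median difference -0.30, which kept its sign in 25 of 25 other settings (from -0.56 to -0.12). Nppa, which encodes atrial natriuretic peptide, measured 21.8 and 9.29 CPM in WT sham, 1197, 1034 and 1222 CPM in WT TAC, 15.8, 23.1 and 9.45 CPM in KO sham, and 98.5, 1633 and 673 CPM in KO TAC. It rose in both genotypes (6.21 ± 1.05 and 5.63 ± 0.85 log2; adjusted p = 0.00700 and 0.00402), and KO TAC 1 was by far the lowest TAC library. The difference for Nppa was -0.58 ± 1.05 (95% interval -2.86 to 1.71). Over the 25 other settings it ran from -1.67 without KO TAC 2 to -0.037 without both WT TAC 3 and KO TAC 1.

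Nppb, the gene of brain natriuretic peptide, had WT levels of 223 and 92.3 CPM after sham and 7922, 4335 and 1519 CPM after TAC. In KO it measured 222, 93.6 and 188 CPM after sham and 280, 2194 and 2240 CPM after TAC. It rose in both, and the difference was -1.64 ± 1.09 (95% interval -4.0 to 0.73). The intervals of both peptides thus include no difference, a response several times smaller in KO and also a larger response in KO. Ankrd1, a titin-associated stress protein, Rcan1, which calcineurin signalling induces, and Nmrk2, a kinase of NAD synthesis, rose in both with differences of 0.27 ± 0.62, -0.08 ± 0.40 and -0.15 ± 0.72. The interval of Rcan1 ran from -0.95 to 0.79, which leaves a 2-fold difference in either direction outside it. Myh7, the slow myosin heavy chain, passed in neither genotype, and the interval of its difference ran from -2.62 to 2.90. WT TAC 3 measured 1716 CPM of Myh7 and the other WT TAC libraries 111 and 101 CPM, and without it the difference was 2.73.

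Acta1, the skeletal actin that the fetal heart uses (ENSMUSG00000031972; GRCm38 chromosome 8, 123891769 to 123894751, minus strand), had the highest difference of the 12 load genes. Its WT levels were 169 and 167 CPM after sham and 372, 742 and 1425 CPM after TAC. In KO it measured 24.6, 67.9 and 39.2 CPM after sham and 925, 1143 and 612 CPM after TAC. The TAC libraries of the genotypes overlapped, and every KO sham library lay below both WT sham libraries. Acta1 rose by 2.33 ± 0.58 in WT and by 4.35 ± 0.54 in KO (adjusted p = 0.0340 and 0.00163). The difference of 2.02 ± 0.71 (95% interval 0.48 to 3.55) had an unadjusted p of 0.0143 and an adjusted p of 0.992. Between genotypes the level differed by -1.94 ± 0.53 after sham and by 0.08 ± 0.47 after TAC, neither called. Ccn2, a matricellular target of stretch signalling, had the opposite pattern, with 22.5 and 43.5 CPM in WT sham, 1094, 584 and 547 CPM in WT TAC, 64.1, 109 and 24.2 CPM in KO sham and 81.8, 361 and 445 CPM in KO TAC. Ccn2 rose in WT (4.49 ± 0.84) and did not pass in KO (2.17 ± 0.64; adjusted p = 0.0733), with a difference of -2.32 ± 0.94 that did not pass. Reads of the near-identical actins and of Myh6 and Myh7 could have been shared between genes, since the labels do not say how such reads were counted.

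**Figure D3:**
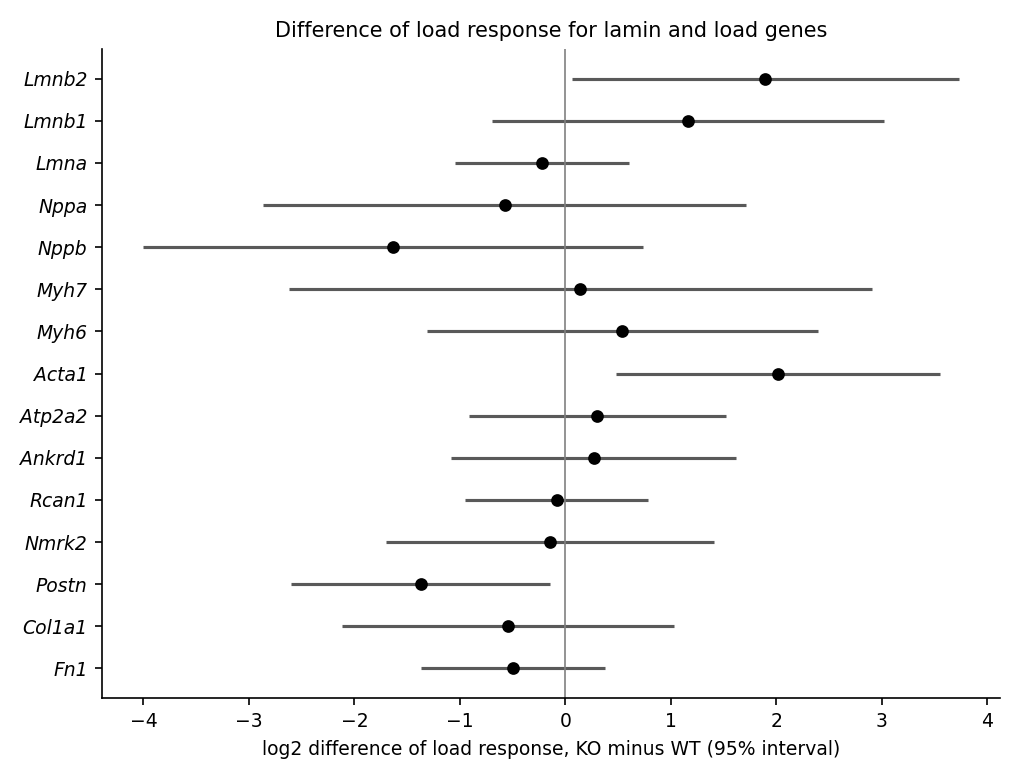
Log2 difference of load response, KO minus WT, with its 95% interval for the 3 lamin genes and the 12 load genes. Points right of 0 mark a higher response in KO; the intervals of Lmnb2, Acta1 and Postn exclude 0 before adjustment and the other 12 include it.

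Contractile and calcium handling genes of the mature cardiomyocyte had medians below 0 in both genotypes. Of 28 tested, 6 fell and 1 (Des) rose in WT, against 3.04% and 3.88% of all genes, and 3 fell in KO, against 1.37% of all genes, namely Tcap, Tnni3 and Cacnb2, which also fell in WT. The median was -0.56 in WT and -0.48 in KO. Atp2a2 encodes the pump that returns calcium to its intracellular store. Its level was 8277 and 8959 CPM in WT sham, 2941, 1696 and 3716 CPM in WT TAC, 7336 to 9113 CPM in KO sham and 2143 to 5016 CPM in KO TAC. All TAC libraries of Atp2a2 lay below all sham libraries, and it fell in WT (-1.63 ± 0.42; adjusted p = 0.0368, a call lost in 12 of 25 other settings), while in KO it was at -1.33 ± 0.38 (adjusted p = 0.0691). The difference was 0.30 ± 0.56, so the call in WT alone does not show that the genotypes differ.

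Of 28 ion channel genes tested, 10 fell in WT and 5 in KO, all 5 also in WT, against 3.04% and 1.37% of all genes. The median change was -1.14 in WT and -1.09 in KO. Kcnv2 and Kcnd2, subunits of potassium channels, fell in both, with differences of -0.28 (95% interval -1.58 to 1.03) and -0.08 (-1.16 to 1.01). Kcnj2 and Kcnj12, inward rectifiers that hold the resting potential, were the 2 members whose pairwise changes lay wholly apart. Both had the higher response in KO, as did 1.46% of all genes by this count. Kcnj2 (ENSMUSG00000041695; GRCm38 chromosome 11, 111066164 to 111076821, plus strand) measured 62.0 and 72.0 CPM in WT sham, 12.0, 13.1 and 16.4 CPM in WT TAC, 36.7, 29.1 and 51.5 CPM in KO sham and 34, 19.4 and 17 CPM in KO TAC. WT sham lay highest and WT TAC lowest, with KO between them in both states. Kcnj2 fell in WT (-2.27 ± 0.34; adjusted p = 0.00442) and did not pass in KO (-0.74 ± 0.31; adjusted p = 0.213), with a difference of 1.54 ± 0.46 (95% interval 0.54 to 2.53; unadjusted p = 0.00552, adjusted p = 0.992). Its partner in the channel, Kcnj12, had a difference of 0.86 ± 0.38 (unadjusted p = 0.0427).

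Matrix genes rose in both genotypes and had the lower change in KO for most members. All 51 genes of the class were tested. Of these 44 rose in WT, 40 in KO and 38 in both, with 0 falls, against 3.88% of all genes rising in WT and 3.32% in KO. The difference was below 0 in 44 of 51, against 7247 of all 14619 genes, with a median of -0.58 that kept its sign in 25 of 25 other settings (from -0.74 to -0.28). No member passed, and 4 of 51 had an unadjusted p under 0.05 (Fmod, Col3a1, Postn and Sparc), all with the lower change in KO. Over all tested genes 2.97% had such a p, 1.46% with the lower change in KO. Members share cells and libraries, so they are not replicates of this difference. The summed level of 19 fibroblast markers was 1448 to 1464 CPM in WT sham, 1770 to 1917 CPM in KO sham, 2180 to 2970 CPM in WT TAC and 1784 to 2306 CPM in KO TAC, and their part in the matrix result was not tested.

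Postn, which encodes periostin, a protein of activated fibroblasts (ENSMUSG00000027750; GRCm38 chromosome 3, 54361109 to 54391037, plus strand), measured 15.4 and 16.8 CPM in WT sham, 2879, 1881 and 1231 CPM in WT TAC, 24.7, 29.9 and 20.6 CPM in KO sham and 691, 1484 and 1432 CPM in KO TAC. Every KO sham library lay above both WT sham libraries, and the TAC libraries overlapped. Postn rose in both (6.95 ± 0.58 and 5.58 ± 0.45; adjusted p = 0.000302 and 0.000176), with a difference of -1.37 ± 0.56 (95% interval -2.60 to -0.14; unadjusted p = 0.0314, adjusted p = 0.992). In a fit that also held each library's ribosomal protein share it was -0.88. Col3a1, a fibrillar collagen, measured 61.3 and 91.2 CPM in WT sham, 3551, 1613 and 1304 CPM in WT TAC, 98.8 to 132 CPM in KO sham and 943 to 1462 CPM in KO TAC, with a difference of -1.52 ± 0.57 that ran from -1.82 to -0.83 over the other settings. Col1a1 and Fn1 rose in both with differences of -0.54 ± 0.73 and -0.50 ± 0.40, and Tnc, tenascin C, had a difference of 0.48. Mfap4, an elastic fibre protein of the fibroblast list, measured 2.56 and 2.99 CPM in WT sham, 55.9, 118 and 161 CPM in WT TAC, 7.85 to 12.1 CPM in KO sham and 59.0 to 110.3 CPM in KO TAC. As with Postn, KO sham was above WT sham and the TAC libraries overlapped, and the difference was -2.05 ± 0.59 (unadjusted p = 0.00443).

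Among 22 genes of transforming growth factor beta and activin signalling, the ligand genes Tgfb2 and Tgfb3 and the receptor gene Tgfbr1 rose in both genotypes, and 0 members fell. The median change was 0.41 in WT and 0.60 in KO, while the median of the differences was -0.36, so these summaries differ in sign.

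Genes of fuel oxidation had class medians below 0 in both genotypes. Over all tested genes 3.04% fell and 3.88% rose in WT, and 1.37% fell and 3.32% rose in KO. Of 37 genes of fatty acid uptake and oxidation 14 fell in WT and 13 in KO, 9 in both, and 0 rose; the medians were -1.13 and -1.12. Acadm, Hadh and Acaa2, enzymes of mitochondrial beta-oxidation, fell in both with differences of -0.09, 0.03 and -0.19. In the class that joins the tricarboxylic acid cycle to the breakdown of branched chain amino acids, 36 genes were tested; 14 fell in WT and 7 in KO, all 7 also in WT, with medians of -0.90 and -0.79. The 95% interval of the difference lay within -1 and 1 (a change of 2-fold) for 16 of these 36 genes, against 9.88% of all tested genes. Dbt, the core subunit of the branched chain complex, measured 109 and 118 CPM in WT sham, 31.6, 21.6 and 35.4 CPM in WT TAC, 82.7 to 86.1 CPM in KO sham and 32.5 to 37.0 CPM in KO TAC. It fell in both, from a lower sham level in KO, with a difference of 0.66 ± 0.35 (unadjusted p = 0.0802).

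Pdk4, the kinase that blocks the entry of pyruvate into oxidation, had a difference far from the medians of these classes. Its level was 69.5 and 169 CPM in WT sham, 367, 347 and 504 CPM in WT TAC, 277, 510.2 and 708 CPM in KO sham and 541, 481 and 143 CPM in KO TAC. Both WT sham libraries lay below all other libraries, except that KO TAC 3 lay between them. Pdk4 passed in neither genotype (1.77 ± 0.60 and -0.36 ± 0.50; adjusted p = 0.0900 and 0.777), and the difference was -2.13 ± 0.77 (unadjusted p = 0.0166). Of 42 nuclear-encoded respiratory chain and ATP synthase genes 2, Sdha and Ndufs1, fell in WT and 0 in KO, against 3.04% and 1.37% of all genes. The next values are for this respiratory chain class. Their median difference of -0.53 was -0.044 in the fit with each library's ribosomal protein share.

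Cell cycle genes had high medians in both genotypes, and for most members the fitted change was higher in KO. Of 44 tested, 21 rose in WT, 28 in KO and 20 in both, and 1 (Cenpf) fell in WT. Over all tested genes 3.88% rose in WT and 3.32% in KO, and 3.04% fell in WT. The median was 2.30 in WT and 3.41 in KO, the difference was above 0 in 32 of 44, against 50.4% of all genes, and the median difference was 0.68. It was 0.13 without KO TAC 1 and 0.24 without both KO TAC 1 and WT TAC 3. At an unadjusted p under 0.05 the difference was higher in KO for 4 members and lower for 1 (Ccnb1), against 1.5% and 1.46% of all genes. Nusap1, a protein of the mitotic spindle, measured 1.44 and 1.42 CPM in WT sham, 7.09, 3.80 and 8.83 CPM in WT TAC, 1.02, 0.784 and 0.417 CPM in KO sham and 19.3, 7.92 and 21.2 CPM in KO TAC. KO was below WT in every sham library, and 2 of 3 KO TAC libraries lay above all WT TAC libraries. Nusap1 rose in both (2.20 ± 0.54 and 4.45 ± 0.51), with a difference of 2.25 ± 0.70 (unadjusted p = 0.00740, adjusted p = 0.992).

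Cep55, which acts at the final cut between daughter cells, had a like pattern, with 0.563 and 0.394 CPM in WT sham, 4.11, 2.10 and 3.79 CPM in WT TAC, 0.278, 0.121 and 0.208 CPM in KO sham and 12.8, 6.13 and 14.4 CPM in KO TAC. Its groups did not overlap within either surgery, but the sham values rest on 9 and 5 counts in WT and 3, 2 and 3 counts in KO. The difference for Cep55 was 3.01 ± 0.77 (unadjusted p = 0.00206). Mki67, the proliferation marker, measured 71.5 CPM in KO TAC 1 against 4.62 to 17.2 CPM in the other TAC libraries, and rose in KO (4.72 ± 0.83; adjusted p = 0.00762) but did not pass in WT (1.80 ± 0.85; adjusted p = 0.204). Cdca2, a mitotic chromatin protein, had 2 counts over the 3 KO sham libraries. Its ratio of TAC to sham in KO was 83.1 (95% counting interval 22.7 to 691, which covers counting error only). In WT Cdca2 did not pass (1.42 ± 0.87), and its fitted difference was 4.71 ± 1.32 (unadjusted p = 0.00378). Ccnb1, cyclin B1, was not counted in either WT sham library (0 counts), and set against 3 counts for the group its WT level after TAC was at least 24.7-fold higher. In KO it had 4, 3 and 3 counts after sham and rose (3.98 ± 0.61; adjusted p = 0.00502). The fitted difference for Ccnb1 was -4.43 ± 1.56 (unadjusted p = 0.0154), a size that depends on the prior count in WT sham. Which cells held these transcripts was not tested.

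Of 22 macrophage markers tested, 9 rose in WT, 9 in KO and 7 in both, with medians of 1.90 and 1.76. Over all tested genes 3.88% rose in WT and 3.32% in KO. The difference was below 0 in 15 of the 22 markers, with a median of -0.20. Their summed level overlapped after TAC, at 629.8 to 3226 CPM in WT and 748 to 1975 CPM in KO. Ccr2, the receptor that marks monocyte-derived macrophages, measured 3.75 and 3.54 CPM in WT sham, 6.14, 7.30 and 7.58 CPM in WT TAC, 1.75 to 5.49 CPM in KO sham and 9.72 to 22.5 CPM in KO TAC. It rose in KO (2.37 ± 0.43; adjusted p = 0.00913) and did not pass in WT (0.94 ± 0.48; adjusted p = 0.234), although each WT TAC library lay above both WT sham libraries. The difference of 1.43 ± 0.62 did not pass (unadjusted p = 0.0393, edgeR adjusted p = 0.992). Mrc1, another macrophage marker, had a difference in the other direction, at -1.13.

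Il1b, the gene of the inflammatory cytokine interleukin 1 beta (ENSMUSG00000027398; GRCm38 chromosome 2, 129364570 to 129371139, minus strand), had the lowest unadjusted p among the named genes. Levels in WT were 2.38 and 0.709 CPM after sham and 0.179, 0.292 and 0.312 CPM after TAC. In KO it measured 0.741, 0.362 and 0.764 CPM after sham and 2.05, 3.12 and 3.26 CPM after TAC. The TAC libraries lay below sham in WT and above sham in KO without overlap, a pattern with opposite directions found in 50 genes (0.342%). Il1b fell in WT (-2.54 ± 0.67; adjusted p = 0.0426), a call lost in 14 of 25 other settings, and was at 2.17 ± 0.60 in KO (adjusted p = 0.0586). The difference was 4.71 ± 0.90 (95% interval 2.75 to 6.67; unadjusted p = 0.000192), with an edgeR adjusted p of 0.992 and a DESeq2 adjusted p of 0.0114, and adjusted p over all other settings ran from 0.0101 to 1. Counts were low, from 3 to 57 per library. The summed level of 12 neutrophil and mast cell markers was 8.82 to 28.8 CPM in WT sham, 6.94 to 11 CPM in KO sham, 6.18 to 19.1 CPM in WT TAC and 13.2 to 41.6 CPM in KO TAC, and its part in the result for Il1b was not tested. Of 26 cytokine and chemokine genes tested, Ccl8 rose in both genotypes, Ccl11 and Il1b fell in WT, Cxcl10 rose in KO and Il15 fell in KO. The difference had an unadjusted p under 0.05 for Il1b and Il15 (-1.69 ± 0.64), against 2.97% of all genes. Of 30 interferon response genes 1 (Ifi27l2a) rose in WT and 5 others (Irf7, Isg15, Mx1, Zbp1 and Cxcl10) rose in KO, with 0 differences at an unadjusted p under 0.05. Over all tested genes 3.88% rose and 3.04% fell in WT, and 3.32% rose and 1.37% fell in KO.

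**Figure D4:**
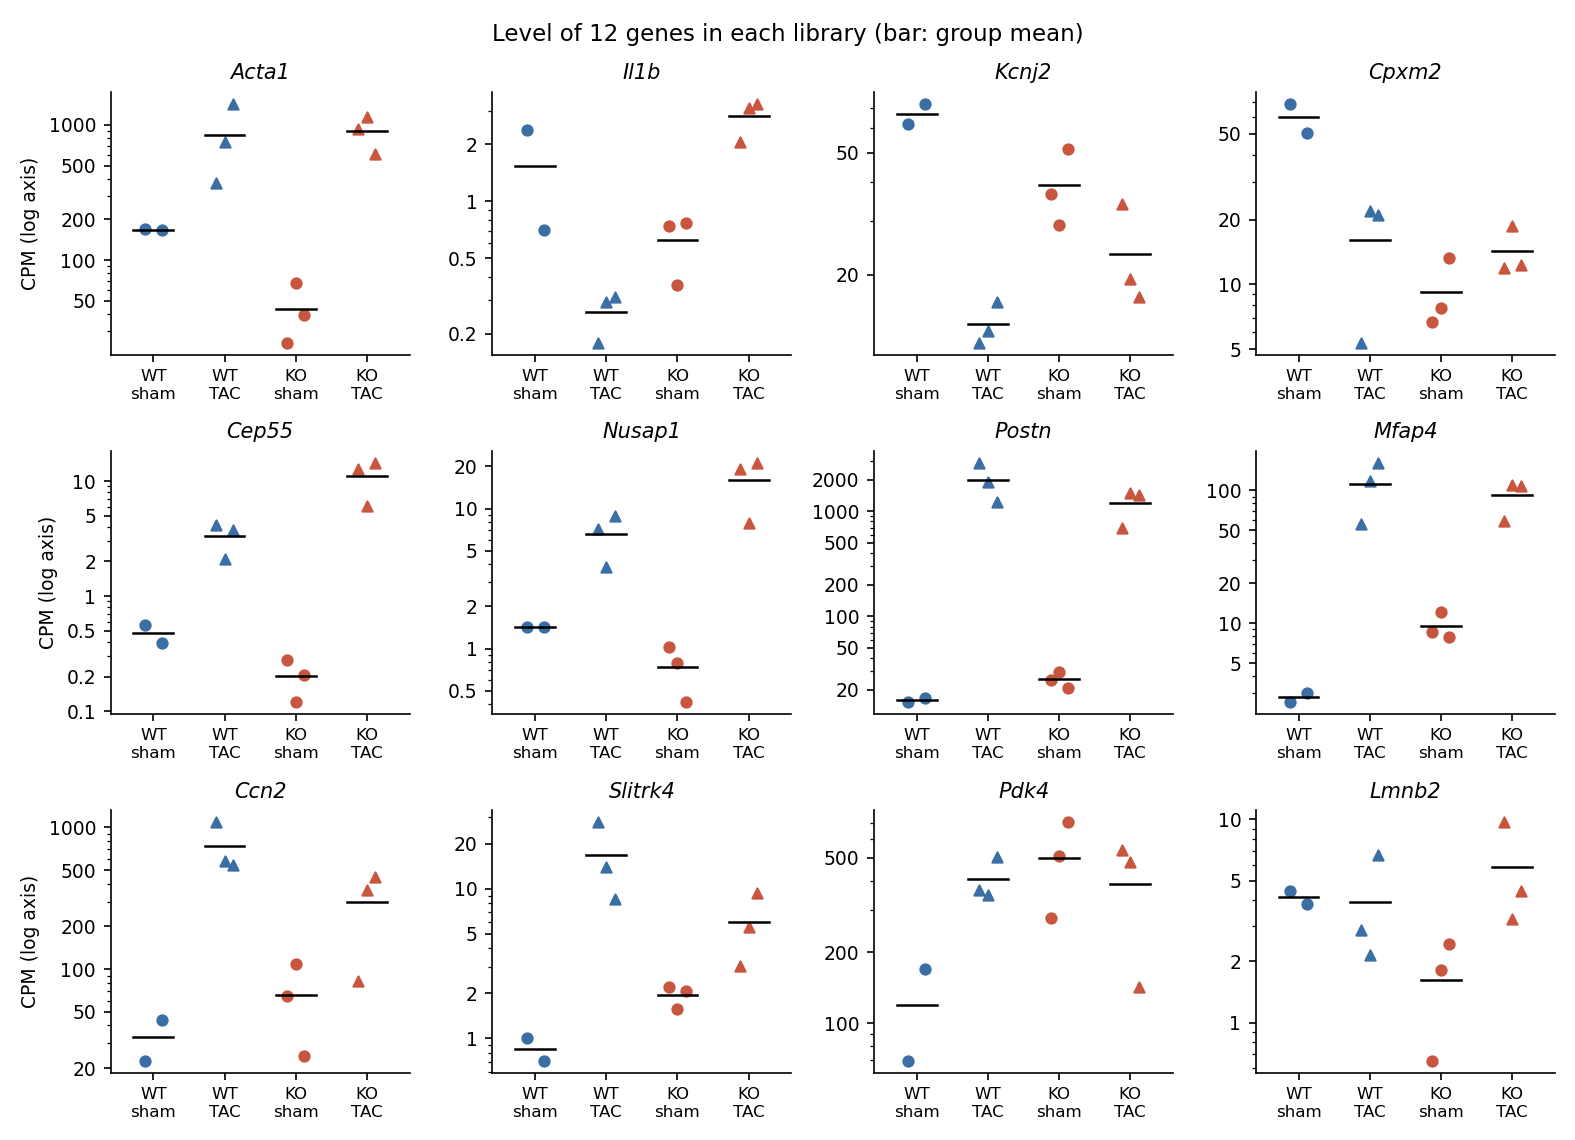
CPM on a log axis in each library for 12 genes, blue for WT and red for KO, circles for sham and triangles for TAC, with bars at group means. Acta1, Nusap1 and Cep55 are lower in KO than in WT after sham, Postn, Mfap4 and Slitrk4 are higher, and the TAC groups of Acta1, Postn and Mfap4 overlap. Cep55 had only 2 to 9 counts per sham library.

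For genes of the nuclear envelope and of transport through it, edgeR called 0 of 29 nuclear pore genes, 0 of 31 importin, exportin and Ran cycle genes and 0 of 26 lamin and nuclear envelope genes, against 6.92% of all genes in WT, 4.7% in KO and 0% in the difference. At an unadjusted p under 0.05 the difference gave 0, 1 (Xpo4) and 1 (Lmnb2), against 2.97% of all genes, so these classes do not stand apart from the background there. For the difference, none of the named members Nup98, Nup85, Xpo4, Nxt1, Lbr and the 3 lamin genes was called in any of the 25 other settings. DESeq2 and limma-voom were among these, and the smallest adjusted p for the difference was 0.435 (Lmnb2 and Nxt1). The median differences were 0.13, 0.04 and 0.04. For these classes the 95% interval lay within -1 and 1 for 5 of 29, 9 of 31 and 5 of 26 genes, so for the others the interval reached a 2-fold difference in at least 1 direction. Xpo4, an export receptor, measured 5.63 and 6.93 CPM in WT sham, 3.57, 4.50 and 3.89 CPM in WT TAC, 3.96 to 7.36 CPM in KO sham and 5.15 to 9.32 CPM in KO TAC, with a difference of 1.09 ± 0.50. Lmna changed by 0.72 ± 0.29 in WT and 0.49 ± 0.25 in KO, neither called, and Lmnb1 by 0.95 ± 0.66 and 2.11 ± 0.58, with KO TAC 1 at 22.0 CPM and no other library above 6.75 CPM. Of 27 calcineurin, NFAT, MAPK and related regulator genes Rcan1 rose in both genotypes, and Mapk14 fell in WT. Their median difference was 0.10, with 12 of 27 intervals within -1 and 1.

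Among 20 tested genes of the integrated stress response and serine synthesis Psat1, an enzyme of serine synthesis, rose and the folate enzyme Aldh1l2 fell in both genotypes, and Mthfd2, another folate enzyme, rose in WT. Their difference was below 0 in 16 of 20, with a median of -0.43 that kept its sign in 25 of 25 other settings (from -0.63 to -0.20), and 0 had an unadjusted p under 0.05. Of 32 heat shock and oxidative stress genes 3 rose in both genotypes (Hmox1, Mt2 and Gpx3) and 3 fell in WT (Sod2, Hspd1 and Hsph1), and the median difference was 0.01. Over all tested genes 3.88% rose and 3.04% fell in WT, and 3.32% rose and 1.37% fell in KO. Hsph1, a large heat shock chaperone, measured 35.2 and 57.3 CPM in WT sham, 12.1, 8.24 and 23.7 CPM in WT TAC, 23.8 to 32.8 CPM in KO sham and 19.3 to 43.2 CPM in KO TAC. It fell in WT (-1.65 ± 0.44; adjusted p = 0.0418) and was at 0.13 ± 0.39 in KO, with a difference of 1.78 ± 0.59 (unadjusted p = 0.0103). The immediate early genes Fos, Junb and Egr1 had differences of 1.97, 1.44 and 2.17 and Myc of -2.04, each with an unadjusted p under 0.05. The class had 36 tested members and a median of 0.04, and 2.97% of all genes had such a p. Gadd45b and Gadd45g, which respond to growth arrest and DNA damage, had lower changes in KO. Gadd45b measured 6.63 and 6.38 CPM in WT sham, 6.43, 8.06 and 9.14 CPM in WT TAC, 10.8, 15.2 and 6.67 CPM in KO sham and 3.05, 5.26 and 2.97 CPM in KO TAC. All of its KO TAC libraries lay below the rest; it fell in KO (-1.54 ± 0.36; adjusted p = 0.0304), and the difference was -1.81 ± 0.54 (unadjusted p = 0.00530).

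Other genes with small unadjusted p-values had a wide genotype gap after sham, after TAC or both. A large difference of response requires such a gap, since it is the gap after TAC minus the gap after sham. Cpxm2, a carboxypeptidase-like protein, measured 68.8 and 50.4 CPM in WT sham, 5.36, 22.0 and 20.9 CPM in WT TAC, 6.67 to 13.3 CPM in KO sham and 11.9 to 18.7 CPM in KO TAC. Its WT sham libraries lay above all others, and its difference was 2.51 ± 0.67 (unadjusted p = 0.00275). Slitrk4, a transmembrane protein best known at synapses, measured 1.0 and 0.709 CPM in WT sham, 28.0, 14 and 8.57 CPM in WT TAC, 1.57 to 2.22 CPM in KO sham and 3.05 to 9.32 CPM in KO TAC, with a difference of -2.67 ± 0.78 (unadjusted p = 0.00480). Sphk1, which makes sphingosine 1-phosphate, rose in WT (4.34 ± 0.73) and did not pass in KO (1.53 ± 0.55), with a difference of -2.81 ± 0.87. Srrm4, a splicing regulator, fell in WT (-3.79 ± 0.66) and measured 12.2 CPM in KO TAC 1 against 2.37 and 2.40 CPM in KO TAC 2 and 3; its difference of 2.82 ± 0.85 was 1.54 without KO TAC 1. Zfp30, a zinc finger gene, had a difference of 1.42 ± 0.40 with neither response called. Over the 434 genes at an unadjusted p under 0.05, the genotype gap was larger after sham in 152 (35.0%), against 36.8% of all tested genes, and edgeR called 0 genes between genotypes after sham or after TAC.

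Ribosomal protein genes had the lowest median difference among classes with at least 20 tested members. Of 85 genes in the class, which include paralogues such as Rpl3l, 82 were tested. Rpl3 rose in WT and Rpl3l fell in both genotypes, and no other member was called, against 6.92% of all genes called in WT and 4.7% in KO. The median change was 1.63 in WT and 0.34 in KO. The difference was below 0 in 80 of 82, with a median of -1.37 and 0 members at an unadjusted p under 0.05. In the fit that held each library's share of counts from these genes the median was -0.12. This move towards 0 was built in, because the covariate is taken from the same genes, so no conclusion is drawn from that share as a covariate here. That share, over 90 genes, went from 1.09% ± 0.616 (SD, n = 2) to 4.05% ± 2.72 (n = 3) between sham and TAC in WT, and from 1.37% ± 0.415 to 2.43% ± 1.35 (n = 3 each) in KO. The difference of the changes in share was -1.89 percentage points (exact permutation p = 0.325, 2-sided). With 1 library left out it ran from -3.25 without WT TAC 3 (exact permutation p = 0.04) to -0.526 without WT TAC 1 (exact permutation p = 0.68). Many pseudogenes resemble these genes, so their counts are uncertain. Of 13 protein genes of the mitochondrial genome 7 were tested, with medians of -1.26 and -1.07 and a difference of 0.32; mt-Nd2 fell in WT and no other was called. Car3, carbonic anhydrase 3, which is abundant in fat cells, had a difference of -8.86 ± 2.10 (unadjusted p = 0.00112). WT TAC 3 held 35.8 CPM of it, the other WT TAC libraries 3.93 and 2.22 CPM and the sham libraries 0.0787 to 6.12 CPM, while no KO TAC library exceeded 0.191 CPM. The summed level of 9 fat cell markers was 27.5, 36.2 and 66.7 CPM in WT TAC, 20.4 to 34.5 CPM in sham and 22.7 to 25.7 CPM in KO TAC. Of these markers 8, 7 and 8 had counts in the WT TAC libraries and 2, 1 and 2 in the KO TAC libraries. Of 4 tested, 3 had an unadjusted p under 0.05 for the difference, all lower in KO, against 2.97% of all genes. Their median change was 2.60 in WT and -3.35 in KO. The median difference was -6.39, or -5.25 with 2 low-count members at their counting bound. The part of fat in the result for Car3 was not tested. Without WT TAC 3 the difference for Car3 was -6.71.

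The difference was measured with less precision than either response. The median standard error was 0.44 for the WT response, 0.39 for the KO response and 0.59 for their difference, which is built from all 4 groups of 2 to 3 libraries. The 95% interval of the difference had a median half-width of 1.27 (log2), and a gene of median precision needed a difference of that size, 2.42-fold, for an unadjusted p of 0.05. To pass the adjusted threshold as a single gene it needed 4.65 (25.1-fold), and among the 4873 genes with the highest mean CPM 3.56 (11.8-fold). The half-width was under 1 in 4129 genes (28.2%), and in 3 equal classes by mean CPM its median was 2.30 in the low, 1.12 in the middle and 0.98 in the high class. The interval lay within -1 and 1 in 1444 genes (9.88%), which are the genes for which these libraries bound the difference below 2-fold in both directions.

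**Figure D5:**
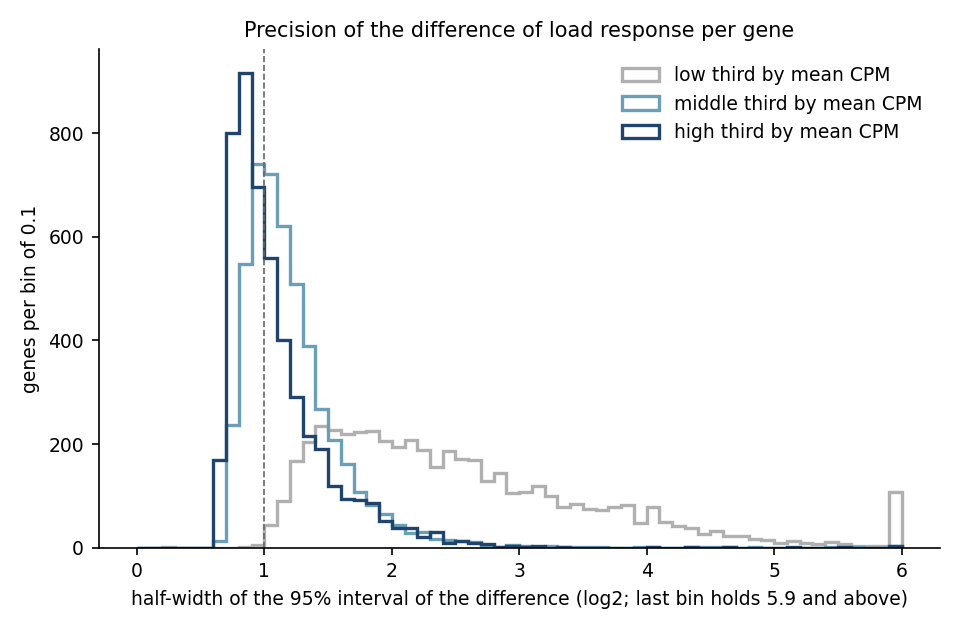
Number of tested genes by the half-width of the 95% interval of the difference of load response (log2), for genes in 3 equal classes by mean CPM (low, middle and high, 4873 genes each); the last bin holds 5.9 and above. The dashed line marks a half-width of 1, under which 53.01% of the high, 31.6% of the middle and 0.164% of the low class fall.

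Leaving out libraries showed how far the count of 0 rests on single samples. With any 1 of the 11 libraries left out edgeR still called 0 genes, but the number at an unadjusted p under 0.05 ran from 256 (1.75%) without KO sham 1 to 1633 (11.3%) without WT TAC 3. Calls ran from 30 to 2663 calls in WT (without WT sham 1 and without WT TAC 3) and from 226 to 996 in KO (without KO sham 1 and without WT TAC 3), against 1011 and 687 with all libraries. Of the 39 WT calls among the named genes, 34 were lost without WT sham 1 and 30 without WT sham 2; those of Postn, Fn1, Mfap4, Col3a1 and Dbt were kept in all 25 other settings. The calls in WT of Hsph1 and Cpxm2 were lost in 11 of the 25, that in KO of Nppb in 9 and that in KO of Gadd45b in 7, each time with more than 1 of the single libraries left out among them. Without both WT TAC 3 and KO TAC 1 there was 1 call for the difference, the predicted gene Gm6969 (named after its values were seen), whose KO sham libraries measured 37.3 to 85.3 CPM against 1.0 and 0.709 CPM in WT sham. The title numbers of TAC and sham samples do not overlap, so any batch that follows them cannot be told apart from surgery. Within sham they also separate the genotypes, with both WT numbers above all KO numbers, so a batch that follows them there cannot be told apart from the difference of response. Titles ending in F were KO sham 2, WT TAC 1 and KO TAC 3 and none in WT sham; with this letter as a covariate, or in the 8 samples ending in M alone, edgeR again called 0 genes, with 358 and 228 at an unadjusted p under 0.05.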

How the data were processed

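The values analysed are the deposited raw counts of 11 libraries, with 1 row per Ensembl gene. Per the submitters' processing notes STAR 2.5.1, featureCounts, DESeq2 and build GRCm38 were used; neither annotation version nor strandedness is named there, nor what was done with reads that align in more than 1 place, so overlapping and antisense genes cannot be separated. Of 46517 identifiers 46005 matched GENCODE M21, from which symbols and GRCm38 coordinates were taken. Every sample column was used (0 left out). Groups came from the labels, with WT read as Lmnb2 WT. No pair of libraries looked like a repeat of 1 library (chi-square per gene of at least 33.8).

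Counts were fitted in R 4.3.3 with edgeR 4.0.16 (filterByExpr, TMM, glmQLFit with 1 mean per group over all 11 libraries, 7 residual degrees of freedom, glmQLFTest). Tests were 2-sided and adjusted by Benjamini-Hochberg over 14619 genes, with a threshold of 0.05. Standard errors are the log2 change over the root of F and are approximate; 95% intervals use t quantiles. Values per library are TMM-scaled CPM. The fit was checked on simulated data. limma 3.58.1 and DESeq2 1.42.0, other scalings, filters and covariates, and each library left out were run as alternatives, 25 in all. The comparison, the 35 gene classes and the alternatives were chosen with earlier results of these data known. Named genes are the 3 lamins, 12 load genes, the 8 genes per direction with the smallest interaction p and a mean of at least 1 CPM (predicted, ribosomal protein and mitochondrially encoded genes apart), and per class the 2 members with the smallest p among those with a mean of at least 1 CPM, 94 genes in all, of which the text gives a part; other members were named from their class counts after their values were seen. Results for some genes are not reported here.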

Additional observations from a re-analysis of the deposited data

Results flagged for a closer look

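For 3 of the named genes every TAC library moved one way from sham in WT and the opposite way in KO; 50 of 14619 tested genes (0.342%) did so, 27 with WT lower and KO higher after TAC and 23 the reverse. Il1b had a difference of response of 4.71 (log2, KO minus WT). Car3 had a difference of -8.86, with 35.8 CPM in WT TAC 3 and 0 CPM in KO TAC 2. Hsf2, a heat shock transcription factor, had a difference of -1.20, with 11.9 and 12.7 CPM in WT sham, 25.3, 18.5 and 15.9 CPM in WT TAC, 16, 18.5 and 16.3 CPM in KO sham and 12.5, 10.3 and 13 CPM in KO TAC. The test of the difference did not pass for any of them after adjustment (edgeR adjusted p = 0.992 each).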

How the results depend on the processing

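Of 2348 values for the 94 named genes under 25 other settings, 2296 kept their direction and side of the threshold, 17 passed it (16 without a filter and Il1b in DESeq2) and 35 changed sign; 81 genes never changed sign. No gene passed for the difference of response in the other settings except in DESeq2 (2), without a filter (80, 19 higher and 61 lower) and without both WT TAC 3 and KO TAC 1 (1). Of the 80 genes 79 were also tested with the filter. Without it the fit gave a median of 169645 degrees of freedom per gene, against 12.4 as reported, so its p-values rest on a spread pooled over genes. WT calls, 1011 as reported, were 2197 in DESeq2, 3445 in limma-voom with sample quality weights, 2243 without a filter, 608 with the title letter, 204 in samples ending in M, 536 with the ribosomal protein share and 4374 without both libraries. KO calls, 687 as reported, were 1499 in DESeq2, 1980 with quality weights, 1.3e+03 without a filter, 102 (samples ending in M), 1428 (ribosomal protein share) and 2117 (without both), and 1385 with library totals. The causes were not tested.

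Median class differences moved beyond the spread between libraries as follows. With the ribosomal protein share they were -0.27 for ion channels, -0.044 for the respiratory chain, -0.12 for ribosomal proteins (whose own counts make up the share), -0.23 for fibroblast and -0.048 for endothelial markers. With library totals they were 0.29 for the tricarboxylic acid cycle and branched chain class, 0.13 for glycolysis and 0.18 for importins and exportins. In samples ending in M they were 0.16 for importins and exportins, 0.54 for immediate early genes, 0.58 for neutrophil and mast cell, 0.23 for epicardial and -0.23 for Schwann cell markers. With quality weights they were -0.16 for TGF-beta, 0.37 for immediate early, 0.49 for circadian and -4.81 for fat genes, and with limma-voom 0.53 for cytokines and -0.39 for atrial markers. TGF-beta was at -0.20 with the title letter, lymphocyte markers at 0.82 with a mean count of at least 10, and without both libraries cell cycle was at 0.24 and fat at -3.98.

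Signs changed in samples ending in M for Myh7 (-0.45), Nmrk2 (0.12) and Ptprc (0.19), with library totals for Rcan1 (0.021) and without both libraries for Rcan1 (0.18). With the ribosomal protein share they changed for Myh6 (-0.13), Atp2a2 (-0.0056), Nmrk2 (0.43), mt-Nd5 (-0.073), mt-Nd2 (-0.073), Ptprc (0.041), Myl4 (0.18) and Hbb-bs (0.38).

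With 1 library left out, WT calls ran from 30 to 2663 and KO calls from 226 to 996. Class medians ran from -0.20 to 0.46 for ion channels, -0.43 to -0.16 for TGF-beta, 0.018 to 0.23 for the tricarboxylic acid and branched chain class, -0.15 to 0.15 for glycolysis, 0.13 to 0.92 for cell cycle, -0.045 to 0.22 for importins and exportins, -0.19 to 0.70 for immediate early, 0.15 to 0.66 for interferon, -0.21 to 0.67 for mitochondrially encoded and -0.045 to 0.29 for calcineurin and MAPK genes. Marker medians ran from -0.084 to 0.83 for endothelium, -0.20 to 0.39 for pericytes and smooth muscle, -0.051 to 0.99 for lymphocytes, 0.50 to 2.07 for neutrophils and mast cells, -1.98 to -0.015 for epicardium and -10.41 to -4.56 for fat. Single genes ran from -0.40 to 2.73 (Myh7), -0.35 to 1.35 (Myh6), -0.19 to 0.60 (Atp2a2), -0.0045 to 0.97 (Ankrd1), -0.21 to 0.10 (Rcan1), -0.74 to 0.28 (Nmrk2), -0.92 to 0.070 (Col1a1), -0.21 to 0.83 (mt-Nd5), -0.19 to 0.74 (mt-Nd2), -0.40 to 0.077 (Ptprc) and -0.10 to 0.95 (Wt1). The difference in mitochondrial share ran from -1.85 to 14.8 and in ribosomal protein share from -3.25 to -0.53 percentage points.

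No paired analysis was possible because the labels pair no samples and give the groups no shared replicate numbers. The WT sham group has 2 libraries, and counts per library were 14770383 or more; depth itself was not varied.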
